A study of Mus musculus with 6 samples.

Results

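In all, 46 genes of protein folding and export from the endoplasmic reticulum (ER) were followed in stromal cells of mouse skeletal muscle. They were taken from a list of ER chaperones, disulfide isomerases, unfolded protein response genes, translocon and glycosylation genes, and genes of the COPII coat, which cells that secrete collagen use. All 46 were found among the 22483 genes of the expression table. Swiss white mice aged 8 to 12 weeks were studied, without a genetic modification named in the labels. Cardiotoxin (20 uM), a venom toxin that destroys muscle fibers, was injected into one hind limb, and cells were taken on day 3. Untreated contralateral muscle was the control. By the study's methods, muscle was digested with enzymes, and the cells were kept for hours in a warm incubator so that surface markers recovered. The part of this handling in the levels was not tested. Cells that carried CD45, CD31 or CD11b were gated out, and the rest were sorted on CD140a (the product of Pdgfra) and Sca1 (the product of Ly6a) into CD140a(+)/Sca1(-), CD140a(-)/Sca1(+) and CD140a(+)/Sca1(+) cells. Each subpopulation gave 1 library in each state, 6 in all, and how many mice went into a library is not given in the sources used here. The labels give the tibialis anterior as the source of these libraries, and the study's methods name it as the muscle resected after intervention. The study's results instead assign the gastrocnemius and soleus to the cardiotoxin model and keep the tibialis anterior for immobilization. The sources thus disagree on the muscle.

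A secreted protein enters the ER through the Sec61 channel while it is made. Signal peptidase cuts off its leader, the oligosaccharyltransferase adds sugar chains, and chaperones and disulfide isomerases fold it before COPII vesicles carry it towards the Golgi. The sensors encoded by Ern1, Eif2ak3 and Atf6 detect unfolded protein and raise chaperone genes through the factors XBP1, ATF4 and the cleaved form of ATF6. Fibroblasts that deposit collagen depend on this route, since procollagen is hydroxylated and trimerized in the ER and is then too large for a common transport vesicle.

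Values are normalized counts of reads from the 3′ end of transcripts, so they were not scaled to gene length. Log2 changes were taken on the deposited variance-stabilized scale, on which low counts change less than on the count scale. A gene that had no read in a given library is called listed at 0. Values of 3 libraries are always given for CD140a(+)/Sca1(-), then CD140a(-)/Sca1(+), then CD140a(+)/Sca1(+). The estimated depth ranged from 2095060 to 14138500 reads per library. The library of injured CD140a(+)/Sca1(-) cells was the shallowest and stood apart, with 69.1% of its genes at 0, against 28.2% to 39.0% in the other libraries. Of the 46 genes studied, 10 were at 0 in it and no more than 1 in any other library. Pdgfra RNA went against the sort in control muscle, with 33.6, 211 and 26.3 normalized counts, since the CD140a(-) library was the highest. After injury it stood at 203, 335 and 1240.0, so the CD140a(-) library was still above the CD140a(+)/Sca1(-) library. Ly6a stood at 70.4, 5850.0 and 253 in the controls and at 2.09, 1177 and 4099 after injury, so the Sca1(-) library was the lowest in both states. In these bulk libraries, fewer cells of a type and less RNA per cell cannot be told apart.

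The promoters of 38 of the 46 genes were present in the RefSeq table (GRCm38.p6), as windows from 250 bases before to 50 bases after the start. They are shown because 3 short elements read by the unfolded protein response can be looked for in them. The ER stress response element, CCAAT and CCACG 9 bases apart, was found in 7 genes (18.4% of the 38), against 39 of 32851 promoters (0.119%). Capitals mark its parts, and each window is printed in the direction of the element.
Hspa5 (chr2:34772020-34772048, plus strand): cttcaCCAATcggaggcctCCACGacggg
Calr (chr8:84847070-84847098, plus strand): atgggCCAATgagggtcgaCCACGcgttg
Hsp90b1 (chr10:86705633-86705661, minus strand): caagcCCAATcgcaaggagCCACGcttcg
Hsp90b1 (chr10:86705528-86705556, plus strand): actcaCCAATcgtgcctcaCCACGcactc
Canx (chr11:50325795-50325823, minus strand): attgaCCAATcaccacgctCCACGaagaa
Pdia6 (chr12:17266486-17266514, plus strand): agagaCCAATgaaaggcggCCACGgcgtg
Dnajc3 (chr14:118937822-118937850, plus strand): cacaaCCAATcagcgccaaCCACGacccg
Creld2 (chr15:88819515-88819543, minus strand): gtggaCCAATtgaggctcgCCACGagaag
The second form of the element, ATTGG and CCACG 1 base apart, was found in 2 genes, against 12 of all promoters (0.0365%).
Herpud1 (chr8:94386368-94386396, plus strand): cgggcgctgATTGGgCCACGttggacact
Dnajb11 (chr16:22857843-22857871, plus strand): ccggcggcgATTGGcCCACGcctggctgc
The unfolded protein response element, TGACGTGG, was found in 3 genes of the COPII and retrieval group, against 222 of all promoters (0.676%).
Sec24d (chr3:123267459-123267488, plus strand): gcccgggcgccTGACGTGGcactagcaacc
Sec23a (chr12:59011993-59012022, minus strand): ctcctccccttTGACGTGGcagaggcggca
Kdelr3 (chr15:79516367-79516396, minus strand): tggccgcgcggTGACGTGGcggggcggcca
Both strands were searched, and no gene held more than 1 of the 3 kinds, all of which share the letters CCACG on one strand. A match of letters is a description and not a bound site.

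The 46 genes together held 2.22%, 1.42% and 0.816% of all normalized counts in the control libraries, and 1.57%, 1.86% and 1.47% after injury. The mean was 1.48% ± 0.704 in controls and 1.63% ± 0.202 in injured muscle (SD, n = 3), so the injured libraries lay within the control range and closer together. Much of the share was 1 gene, Hspa5, which encodes the chaperone BiP. It alone held 0.995%, 0.546% and 0.288% of counts in controls and 0.487%, 0.589% and 0.401% in injured muscle. Without it, the other 45 genes held 0.874% ± 0.348 and 1.14% ± 0.112 (SD, n = 3). By library this was 1.22%, 0.871% and 0.528% in controls and 1.08%, 1.27% and 1.07% after injury. The share was thus higher in both Sca1(+) pairs and lower in the other.

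Collagen RNA, the cargo, was higher after injury in every pair and changed by more than the machinery. The chains of fibrillar collagen (Col1a1, Col1a2 and Col3a1) held 0.228%, 0.131% and 0.152% of the counts in controls and 2.39%, 2.93% and 1.94% in injured muscle. Col1a1 went from 1458, 652 and 1374 normalized counts to 12760, 12744 and 8114. For every count of the 45 genes without Hspa5 there were 0.186, 0.151 and 0.288 collagen counts in controls and 2.20, 2.31 and 1.82 in injured muscle. The groups did not overlap in this ratio, and every injured library lay several times above every control library. The 10 fibroblast markers, which include these chains, held 0.428%, 0.707% and 0.201% of counts in controls and 2.64%, 3.42% and 2.42% after injury. The part of fibroblast content in the ratio was not tested.

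**Figure D1:**
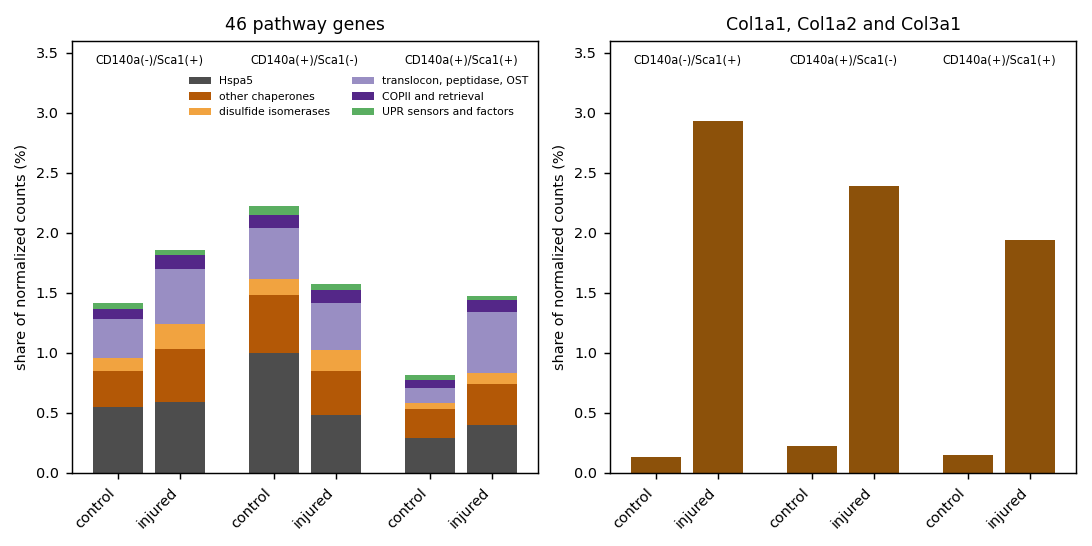
Share of all normalized counts (y axes, percent) held by the 46 ER and secretory pathway genes, split by role (left), and by Col1a1, Col1a2 and Col3a1 (right), with 1 bar per library on the same scale. The pathway genes held 0.816% to 2.22% without a common direction after injury, while the collagen chains held at most 0.228% in control and at least 1.94% in injured libraries.

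In control muscle the 3 libraries stood in a recurring order. Among 40 genes that averaged 20 or more normalized counts over the control libraries, CD140a(+)/Sca1(-) was highest in 30 and lowest in none, while it was highest for 30.9% and lowest for 25.5% of all 7619 genes at that level. CD140a(-)/Sca1(+) was highest in the other 10 and lowest in 9, against 41.2% and 27.8%. CD140a(+)/Sca1(+) was lowest in 31 and highest in none, against 46.7% and 27.9% of all genes. Setting the medians of well-measured genes equal left 28 highest in CD140a(+)/Sca1(-) (25.7% of all genes) and 24 lowest in CD140a(+)/Sca1(+) (33.0%). With 1 library per subpopulation these orders have no test. Endothelial markers took 1.56% of the counts in the control CD140a(+)/Sca1(+) library, with all 12 detected, against 0.156% and 0.203% in the other control libraries and 0.00721% to 0.0254% after injury. Haemoglobin and other red blood cell genes took 0.587% there. Schwann cell markers, 5 of 5 detected in each control library, took 0.0834% in control CD140a(+)/Sca1(-) cells and 0.0178% or less elsewhere. The part of these in the order was not tested. Plasma cells, the classic secretory cell, were looked for with 7 markers, of which Tnfrsf17 was at 0 in all 6 libraries and Mzb1 in 5. The 7 markers summed to 0.00670%, 0.0222% and 0.00687% of the counts in controls and to 0.0590%, 0.0340% and 0.0404% after injury, with 4, 1 and 2 of them at 0 and then 5, 4 and 4. Their summed level was thus higher in every injured library, although more of the markers were at 0 than in the control of the same sort. Mzb1, Ighm and Tnfrsf17 were at 0 in all 3 injured libraries. The sum came from Jchain and Sdc1 in injured CD140a(+)/Sca1(-) cells and from Sdc1, Igkc and Prdm1 in the other injured libraries. Its part in the injury changes was not tested.

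After injury the order was less uneven. Of 40 genes that averaged 20 or more over the injured libraries, CD140a(-)/Sca1(+) was highest in 19 (47.5%, against 25.8% of all 7255 genes at that level), CD140a(+)/Sca1(+) in 11 (27.5%, against 40.7%) and CD140a(+)/Sca1(-) in 10 (25.0%, against 33.5%). CD140a(+)/Sca1(-) was lowest in 18 (45%, against 50.5% of all genes).

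**Figure D2:**
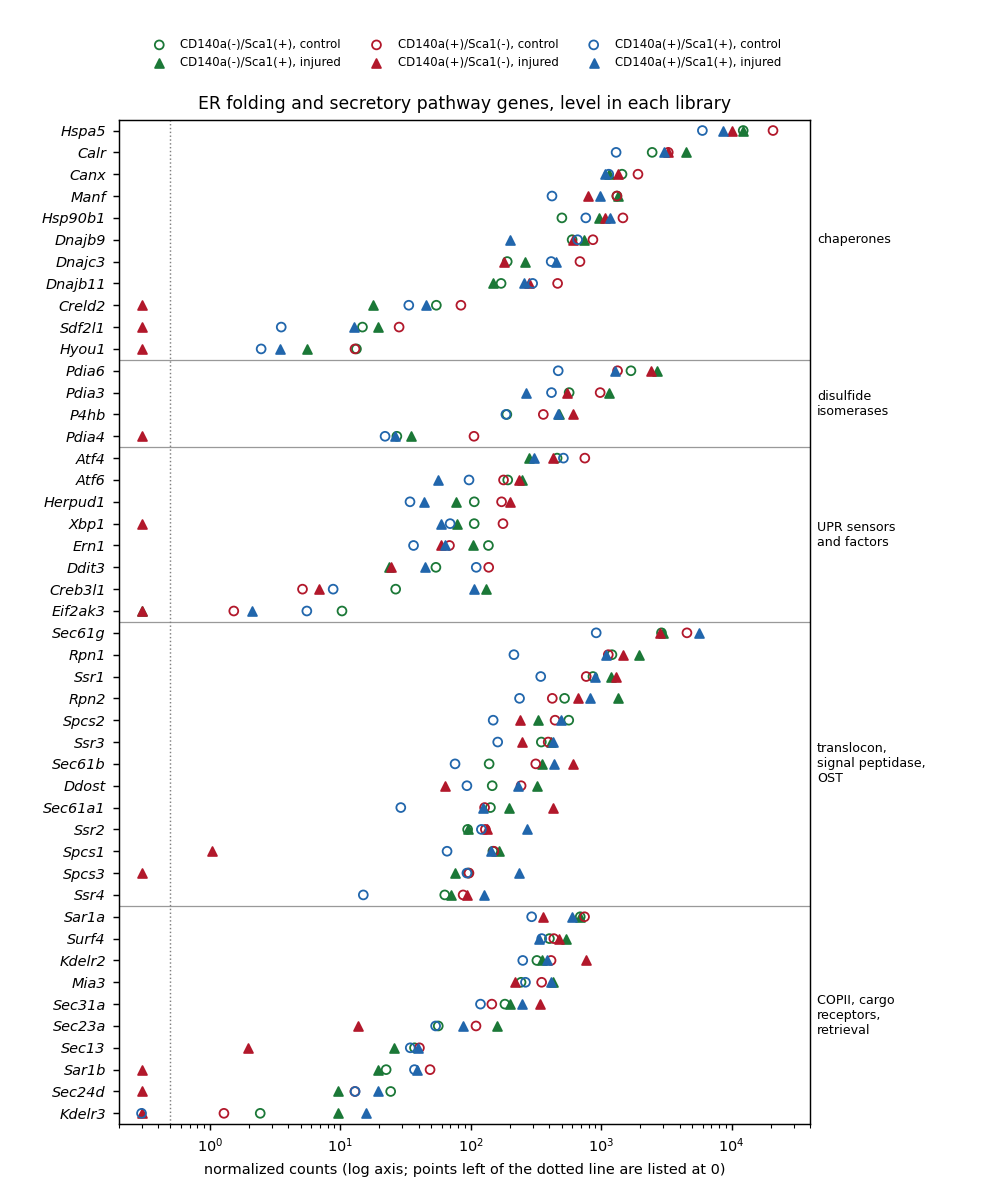
Normalized counts (x axis, log scale) of each of the 46 genes in the 6 libraries, grouped by role. Open circles are control and filled triangles injured libraries, colored by subpopulation, and points left of the dotted line are listed at 0. Of the 11 gene values at 0 after injury, 10 are in the CD140a(+)/Sca1(-) library (red triangles).

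The injury comparison was fitted over 15532 genes with limma, with subpopulation as the block, and a gene was called when p was under 0.05 and the change at least 3-fold. All 46 genes passed the filter on low values. Of the 46, 1 was called higher, against 2.3% of all genes tested, and 0 were called lower, against 3.46%. A count of 1 in 46 is near the background. At an unadjusted p under 0.05 without the fold limit, 3 genes were higher (background 2.93%) and 1 was lower (5.06%). No gene of the table had an adjusted p under 0.05 (lowest 0.192, and 0.575 among the 46). The median change was 0.01 over the 46 genes and -0.33 over all genes tested. Over genes with at least 20 normalized counts in all 6 libraries it was 0.17 for 31 of the 46 and 0.10 for all 3760. The p-values rest on 3 pairs of different cell types as replicates.

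In 12 genes the level was higher after injury in all 3 subpopulations (26.1%, against 7.92% of all genes), and in 6 it was lower in all 3 (13.0%, against 20.2%). These counts moved with the scaling between libraries. Quantile normalization gave 11 higher (23.9%, against 11.8% of all genes) and 8 lower (17.4%, against 17.6%), and equal medians of the well-measured genes gave 10 higher (21.7%, against 6.46%) and 11 lower (23.9%, against 31.4%). Among the 31 well-measured genes, 10 were higher in all 3 (32.3%, against 18.8% of all well-measured genes) and 4 lower (12.9%, against 12.0%). By role, the directions were counted without a test. Of the 13 genes for translocation, signal peptidase and oligosaccharyl transfer, 11 had a positive mean change (84.6%, median 0.65), and of 11 chaperones, 3 had one (27.3%, median -0.37). Among all genes tested 32.6% had a positive change, and among well-measured genes 56.8%. The medians were 0.41 for the 4 disulfide isomerases, -0.36 for the 8 genes of the unfolded protein response and 0.07 for the 10 genes of COPII, cargo receptors and retrieval. With quantile normalization the positive counts were 10 of 13 and 3 of 11, and with equal medians 10 of 13 and 2 of 11. With equal medians the COPII median turned to -0.10.

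**Figure D3:**
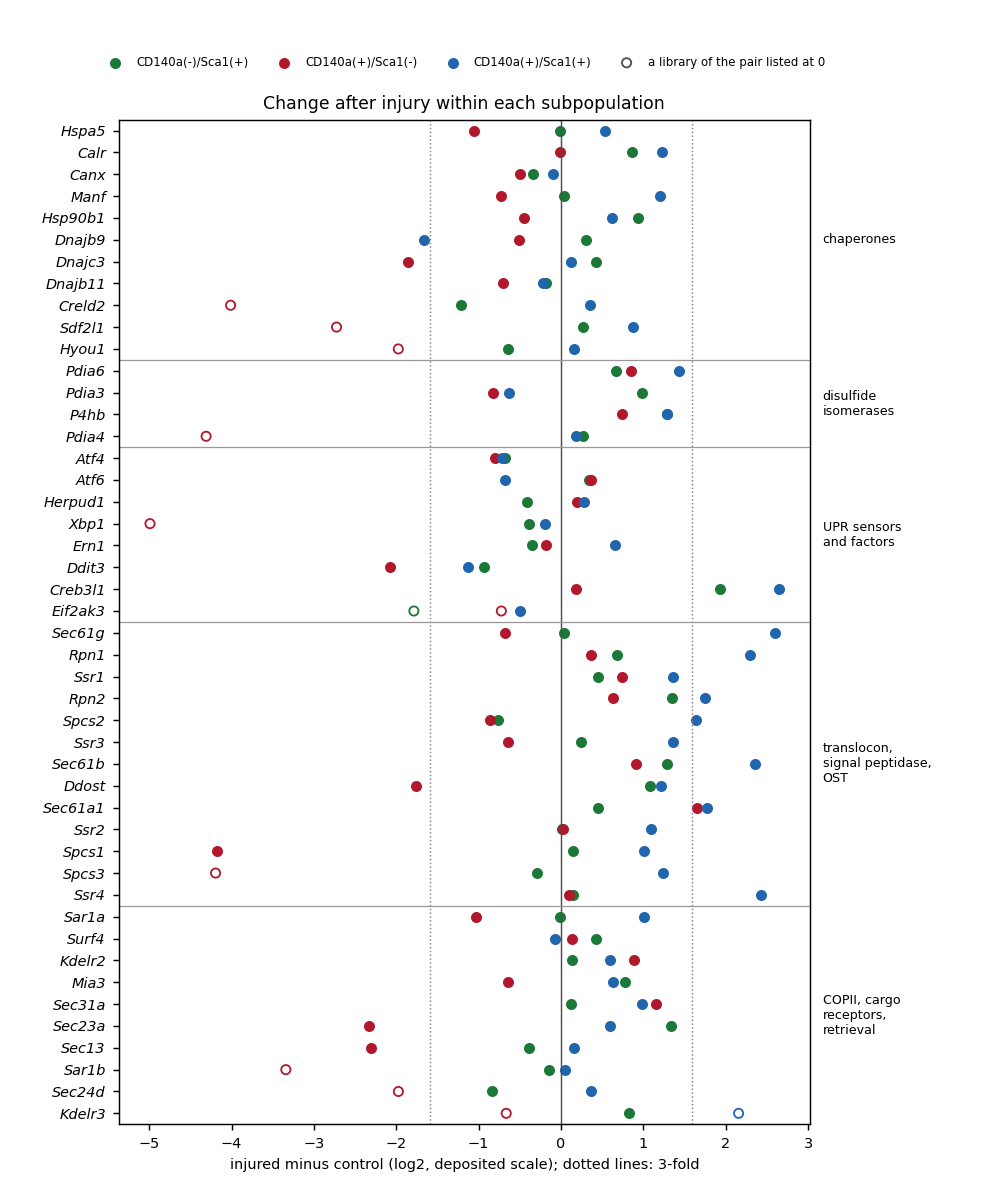
Change after injury of each of the 46 genes within each subpopulation (x axis, injured minus control on the deposited log2 scale), 1 library against 1. Open points have a library at 0 and depend on the floor of the scale, and dotted lines mark 3-fold. In CD140a(+)/Sca1(+) (blue) the translocon group lies to the right of 0 in 13 of 13 genes, and the points far to the left are of CD140a(+)/Sca1(-) (red).

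Chaperones did not move together across the subpopulations. In the CD140a(+)/Sca1(-) pair 0 of 11 were higher (median -0.73), against 23.5% of all genes tested and 54.6% of well-measured genes. In CD140a(-)/Sca1(+) 6 of 11 were higher (36.8% of all genes and 45.5% of well-measured genes), and in CD140a(+)/Sca1(+) 8 of 11 (54.0% and 62.5%). The CD140a(+)/Sca1(-) pair holds the injured library with 69.1% of genes at 0. Hspa5, on chromosome 2 from 34771970 to 34777547, was the most abundant of the 46 genes. It stood at 20763, 12268 and 5969.7 normalized counts in the controls and at 10002, 12195 and 8665 in injured muscle. By count it ranked 5, 9 and 37 among all genes of the control libraries and 12, 11 and 14 after injury. The injured libraries lay within the control range, and the mean log2 change was -0.17 (SE 0.54, interval -1.50 to 1.15).

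Calr encodes calreticulin and Canx calnexin, the lectin chaperones that hold newly glycosylated proteins. Calr stood at 3269, 2460.3 and 1302 in the controls and at 3234, 4471 and 3053 in injured muscle. Canx stood at 1915, 1445 and 1143 and then at 1350.2, 1140.1 and 1071. Calr was thus higher in both Sca1(+) libraries and level in the other, and Canx was lower in all 3, by 1.42, 1.27 and 1.07 times, with a log2 change of -0.31 (SE 0.48).

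Hsp90b1, which encodes GRP94, stood at 1469, 500.1 and 763 in the controls and at 1072, 964 and 1175 in injured muscle. Manf, a secreted ER stress factor that binds BiP, stood at 1320.5, 1321 and 420 and then at 792, 1355 and 984. The control and injured libraries overlapped for both. Of the J-domain partners of BiP, Dnajb9 was 3.31-fold lower in CD140a(+)/Sca1(+) (counting interval 2.91 to 3.75) and Dnajc3 3.81-fold lower in CD140a(+)/Sca1(-) (3.26 to 4.48), each without such a change in the other pairs. Intervals on ratios are binomial, at 95%, on estimated reads rounded to whole numbers. They are approximate and reflect counting error alone. Creld2, Sdf2l1 and Hyou1 did not exceed 84.2 normalized counts in any library, and all 3 were at 0 in the injured CD140a(+)/Sca1(-) library.

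Of the 4 disulfide isomerase genes, 2 were higher after injury in every subpopulation. P4hb, which encodes the isomerase that is also the beta subunit of collagen prolyl 4-hydroxylase, stood at 360.4, 189 and 186 in the controls and at 609, 478 and 471 in injured muscle. Its groups did not overlap, and the change was 1.10 (SE 0.48, adjusted p = 0.636), short of both limits. Pdia6, an isomerase that attenuates ER stress sensors, stood at 1336, 1692 and 469 and then at 2413, 2692 and 1283, a change of 0.98 (SE 0.49, adjusted p = 0.653). Within each subpopulation it was higher, by 1.81, 1.59 and 2.74 times.

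Pdia3, the partner of calnexin and calreticulin, was 2.00 times higher in CD140a(-)/Sca1(+) and lower in both CD140a(+) sorts, from 983 and 416 to 550.1 and 264. Pdia4 was at 106, 27.2 and 22.1 and then at 0, 34.6 and 26.5. At a floor of 3 reads the value of 0 would lie 36.0-fold below the control of the same sort. No bound on the fold follows, since 17.6% of genes at 20 or more in every other library were at 0 in injured CD140a(+)/Sca1(-) cells.

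Of the 8 genes of the unfolded protein response 1 was called, and those for ATF4 and its target CHOP were lower in every pair without a call. Atf4, on chromosome 15 from 80255184 to 80257541, stood at 749.7, 459.6 and 514 in the controls and at 425, 282 and 308 in injured muscle. The highest injured library lay below the lowest control library, and the 3 pairs were close to each other, with ratios of control to injured of 1.76, 1.63 and 1.67. The change was -0.73 (SE 0.47, adjusted p = 0.682), which did not pass the test.

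Ddit3, which encodes the stress factor CHOP and lies on chromosome 10 from 127290829 to 127293753, stood at 137, 54.1 and 110.3 in the controls and at 24.5, 23.5 and 44.5 after injury. Its groups did not overlap either, and the change of -1.38 (SE 0.51, adjusted p = 0.592) had an unadjusted p under 0.05 and was under the 3-fold limit. Groups did not overlap for 2 of the 46 genes in this direction (Atf4 and Ddit3, 4.35%), against 11.2% of all genes tested and 5.59% of well-measured genes. With quantile normalization Ddit3 overlapped and the count was 3 (Atf4, Creld2 and Sec13, against 8.98% of all genes). With equal medians it was 5 (Atf4, Ddit3, Canx, Creld2 and Xbp1, against 14.5%).

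Xbp1, the factor spliced by IRE1 that drives ER expansion, stood at 177, 106 and 69.6 in the controls and at 0, 78.8 and 59.4 after injury. The Sca1(+) pairs were 1.35 and 1.17 times lower. At a floor of 3 reads the value of 0 in injured CD140a(+)/Sca1(-) cells would be 60.1-fold lower. As for Pdia4, the many genes at 0 in that library leave no bound on the fold. The change of -1.86 (SE 1.01, adjusted p = 0.666) was therefore set by 1 library, and it was -0.29 (SE 0.57) without that library. Reads from the 3′ end do not tell the spliced from the unspliced form. The sensors had lower counts. Atf6 stood at 179, 192 and 97.1 and then at 234, 246 and 56.2. Ern1, which encodes IRE1, stood at 68.8, 137 and 36.5 and then at 59.4, 105 and 63.3. Eif2ak3, which encodes PERK, did not exceed 10.3 in any library and was at 0 in 2 of the 3 injured libraries. The first pair of sensors had mean changes of 0.01 and 0.04 (SE 0.51 for each), and that of Eif2ak3 had an adjusted p of 0.655. Herpud1, a degradation factor induced by the response, stood at 172, 107 and 34.3 and then at 199, 77.4 and 44.0.

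Creb3l1 was the exception. It encodes OASIS, an ER-bound factor of the ATF6 type that activates collagen and secretory genes in bone and fibroblasts, and lies on chromosome 2 from 91982328 to 92024502. It stood at 5.14, 26.6 and 8.83 normalized counts in the controls and at 6.87, 132 and 106 after injury. Both Sca1(+) libraries were higher, by 4.94 times (counting interval 4.13 to 5.93) and 12.0 times (6.40 to 25.4), and the CD140a(+)/Sca1(-) pair by 1.34 times (0.413 to 4.23), which counting error covers. The mean change was 1.59 (SE 0.63, adjusted p = 0.620), the only call among the 46 genes. Without the injured CD140a(+)/Sca1(-) library it was 2.29 (SE 0.58, adjusted p = 0.164). It was 1.42 without the CD140a(-)/Sca1(+) pair and 1.06 without the CD140a(+)/Sca1(+) pair, and the call was lost in both. It was also lost under 8 other settings, a fit with no replicate block among them.

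**Figure D4:**
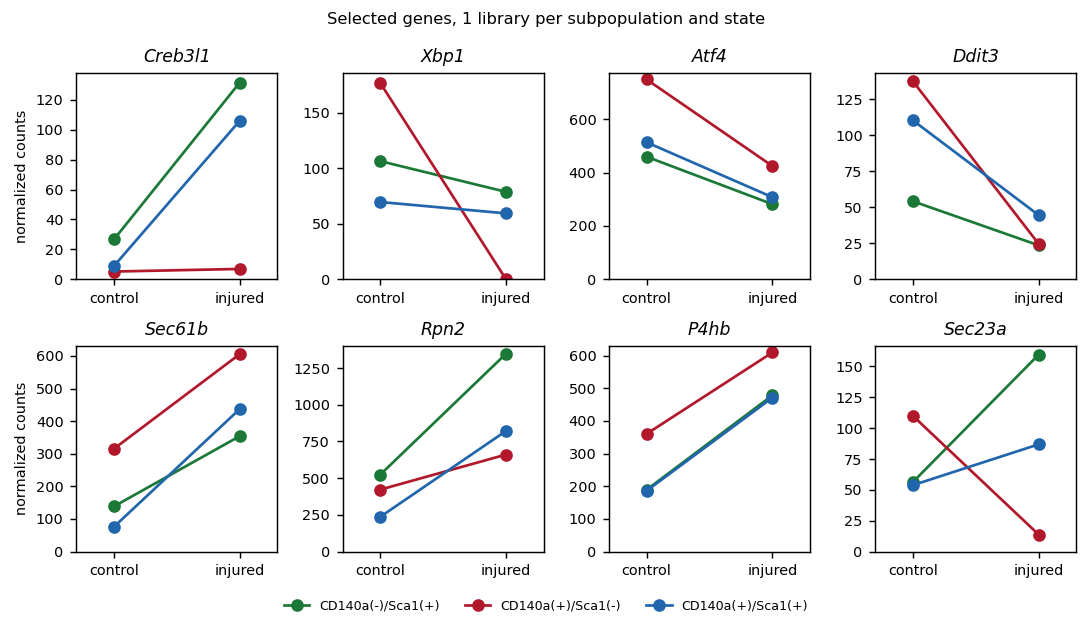
Normalized counts (y axes, each starting at 0) of 8 genes in control and injured muscle, with 1 line per subpopulation joining its 2 libraries. Creb3l1 was higher in both Sca1(+) sorts, Atf4 and Ddit3 were lower and Sec61b, Rpn2 and P4hb higher in all 3, and Xbp1 and Sec23a had their lowest value in injured CD140a(+)/Sca1(-) cells.

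Genes of the ER entry site were the group with most positive changes. Sec61b encodes a small subunit of the channel. It stood at 315, 138 and 75.9 normalized counts in the controls and at 605, 354 and 437 in injured muscle, so that every injured library lay above every control library. The ratios were 1.92, 2.56 and 5.76, and the change was 1.52 (SE 0.53, adjusted p = 0.575), with an unadjusted p under 0.05 and just under the 3-fold limit. Without the injured CD140a(+)/Sca1(-) library it was called, at 1.82 (SE 0.60, adjusted p = 0.303). Sec61a1, the pore-forming subunit, stood at 128, 142 and 29.1 and then at 428, 197 and 125, a change of 1.29 (SE 0.53, adjusted p = 0.623). It was the only one of the 46 genes at least 3-fold higher in CD140a(+)/Sca1(-) (3.35 times). Sec61g, a further small subunit, was at far higher counts, 4546, 2900 and 916 and then 2832, 2976 and 5626, and it was 6.14 times higher in the CD140a(+)/Sca1(+) pair.

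Rpn1 and Rpn2 encode ribophorins, subunits of the oligosaccharyltransferase. Rpn2 stood at 422, 524 and 237 in the controls and at 661, 1348 and 822 in injured muscle. Its groups did not overlap, and the change was 1.24 (SE 0.51, adjusted p = 0.623), with an unadjusted p under 0.05. Rpn1 stood at 1134, 1209.9 and 214 and then at 1467, 1942 and 1096, a change of 1.11 (SE 0.58, adjusted p = 0.655). Both ribophorin genes were higher in all 3 pairs. Ddost, a further subunit, was higher in both Sca1(+) pairs, from 146 and 93.6 to 321 and 231, and lower in CD140a(+)/Sca1(-), from 243 to 63.8.

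Of the 4 genes of the translocon-associated protein complex, Ssr1 was higher in all 3 pairs without overlap, from 768, 866 and 344 to 1294, 1189 and 899. Ssr2 and Ssr4 differed by 1.13 times or less in 2 pairs and were 2.25 and 8.37 times higher in CD140a(+)/Sca1(+). Signal peptidase genes went different ways in different sorts. Spcs1 stood at 151, 148 and 65.9 and then at 1.03, 165 and 144, and Spcs3 at 97.0, 96.0 and 93.6 and then at 0, 76.0 and 235. Spcs1 had about 1 read in injured CD140a(+)/Sca1(-) cells, 146 times below the control of that sort (counting interval 27.3 to 6090). As for Pdia4, the many genes at 0 in that library leave no bound on the fold.

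In the CD140a(+)/Sca1(+) pair, 13 of 13 genes of this group were at least 2-fold higher (21.8% of all genes tested and 25.7% of well-measured genes) and 7 of 13 at least 3-fold (10.4% of all genes tested), with a median of 1.64. The median was 0.24 in CD140a(-)/Sca1(+) cells. For CD140a(+)/Sca1(-) it was 0.03. With quantile normalization 9 of 13 were at least 2-fold higher (16.7% of all genes) and 5 of 13 at least 3-fold (8.07%), with a median of 1.35. With equal medians these were 7 of 13 (13.3%) and 4 of 13 (6.43%), with a median of 1.26. The control library of this pair had the lowest level of the pathway and 1.56% of counts in endothelial markers, as given above. The study also reports its lowest sorting enrichment for control cells of this sort. The part of these in the difference was not tested. Groups did not overlap for 5 of the 46 genes in this direction (10.9%), against 4.18% of all genes tested and 9.31% of well-measured genes. They were P4hb, Sec61b, Ssr1, Rpn2 and Sec31a, all well measured, and the share is near that of well-measured genes. With either other scaling Ssr1 overlapped, while Creb3l1 joined with quantile normalization.

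At the exit from the ER, the COPII coat genes did not share a direction. Sec31a, of the outer coat, stood at 145, 183 and 119 and then at 338, 201 and 246, without overlap and with a change of 0.75 (SE 0.51, adjusted p = 0.685). Sec23a, of the inner coat, stood at 109.8, 56.4 and 53.8 and then at 13.7, 159.6 and 86.9. It was 2.83 times higher in CD140a(-)/Sca1(+) and 7.99 times lower in CD140a(+)/Sca1(-) (counting interval 4.63 to 14.9), so its mean change was -0.13 (SE 0.80). Sec24d, a cargo-binding partner of SEC23A, stood at 13.0, 24.4 and 13.0 and then at 0, 9.64 and 19.3. Defects in SEC23A and SEC24D are known to impair collagen secretion.

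Mia3 encodes TANGO1, the receptor that loads bulky procollagen into COPII carriers. It stood at 349.9, 243 and 263 in the controls and at 220, 427 and 414 in injured muscle, higher by 1.75 and 1.57 times in the Sca1(+) pairs and lower by 1.59 times in the other. The change of 0.26 (SE 0.54) did not pass the test. Kdelr2 and Kdelr3 encode receptors that return escaped chaperones to the ER. Kdelr2 stood at 413, 322 and 251 and then at 771, 354 and 385, and was higher in all 3 pairs. Kdelr3 stood at 1.28, 2.44 and 0 and then at 0, 9.65 and 15.9. With 3 reads taken for the control it would be 5.99-fold higher in CD140a(+)/Sca1(+), and the counting interval starts at 4.59. Surf4, a cargo receptor, ranged from 334 to 540.4 over the 6 libraries. Sar1a, the GTPase that starts coat assembly, ranged from 293 to 746.

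The median change over the 46 genes was -0.67, 0.15 and 0.64 in the order above, beside -0.76, -0.23 and 0.11 over all genes tested. At least 3-fold higher in CD140a(+)/Sca1(+) were 9 genes (10.4% of all genes) and at least 3-fold lower 1 (6.07%). In CD140a(-)/Sca1(+) 1 was higher, Creb3l1 (1.97%), and 1 lower, Eif2ak3 (4.35%). In CD140a(+)/Sca1(-) 1 was higher (8.31%) and 14 lower (29.4%), of which 8 were at 0 in the injured library. Of 5274 genes at 20 or more in every other library, 928 (17.6%) were at 0 in this one, and so were 3 of the 37 such genes studied here (Xbp1, Pdia4 and Spcs3).

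When each subpopulation was compared with the mean of the others over both states, 0 of the 46 genes were called higher in any of them, against 0.657%, 1.33% and 1.32% of all genes. In CD140a(-)/Sca1(+) and CD140a(+)/Sca1(+) 0 were called lower, against 0.283% and 0.47%. A single gene was called lower, Creb3l1 in CD140a(+)/Sca1(-), with a difference of -1.92 (SE 0.67, adjusted p = 0.615), against 3.73% of all genes. Without the injured library of that subpopulation the difference was -0.87 (SE 0.71) and was not called. Without the fold limit, 4 genes had an unadjusted p under 0.05 in the direction of lower levels in CD140a(+)/Sca1(+), against 0.715% of all genes. They were Herpud1, Sec61a1, Atf6 and Pdia6, with differences of -1.51, -1.51, -1.38 and -1.32, none of them 3-fold. In CD140a(+)/Sca1(-), 1 gene had such a p for a higher level, Herpud1 with a difference of 1.46 (against 0.934% of all genes), and 1 for a lower level, Creb3l1 (against 4.9%). The lowest adjusted p among these was 0.615. Each subpopulation entered this comparison with 1 control and 1 injured library, so the p-values do not measure spread between repeats of a sort. Endothelial markers held 1.56% of counts in the control CD140a(+)/Sca1(+) library, and their part in its lower levels was not tested.

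Further genes of the pathway, 119 tested in 7 lists, gave 4 called higher and 2 called lower, against 2.3% and 3.46% of all genes. Higher were Fkbp9, an ER prolyl isomerase, at 2.27 (SE 0.55, adjusted p = 0.436), Tmed3 of the p24 cargo receptors at 1.91, Tusc3 of the oligosaccharyltransferase at 1.86 and Erlec1 of ER-associated degradation at 1.59. Fkbp9 went from 100.2, 151 and 47.7 normalized counts to 626, 390.4 and 450.4, so its groups did not overlap. Tusc3 went from 5.83, 14.4 and 3.56 to 124, 28.3 and 32.0, and Tmed3 from 30.2, 38.6 and 3.53 to 83.4, 74.0 and 159. Some of these control values are near the floor. Of 21 other folding enzymes, 17 had a positive change (median 0.41). Among 19 other targets of ATF4 and CHOP, 4 had a positive change (median -0.58, beside -0.33 over all genes), and 2 were called lower, Ppp1r15a (GADD34, which ends the block of translation) at -1.97 and Sesn2 at -1.78. Ppp1r15a went from 524, 419 and 348 to 23.3, 352 and 99.4. Sesn2 was at low counts, from 14.1, 29.8 and 28.2 to 0, 8.33 and 1.06. No gene was called among 15 of signal recognition and translocation or among 14 of the COPI coat and retrieval, where the medians were 0.17 and 0.05. Of the rest, 1 of 9 other oligosaccharyltransferase genes, 1 of 24 COPII genes and 1 of 17 degradation genes were called higher.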

How the data were processed

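QuantSeq 3′ libraries were sequenced on an Ion Proton. Reads were trimmed by the authors (FastX-Toolkit) and aligned to GRCm38 (mm10, per the submitters' processing notes and the methods) by STAR with BRB-seqtools. The authors then normalized read counts in DESeq2 and deposited them on its variance-stabilized log2 scale, for 22483 genes, of which 22453 identifiers were matched to a symbol. This scale was inverted to normalized counts. Between 33.7% and 57.0% of values under 20 reads lay within 0.02 of a whole number of reads, so whole reads were not recovered. No count model was fitted over the genes, and the counting intervals on ratios used rounded estimates. Depth was estimated from the same step.

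Genes whose 80th percentile was at least 8 after the deposited values were made linear were kept (15532). limma 3.58.1 in R 4.3.3 was fitted with state and subpopulation as terms, moderated without a trend (residual degrees of freedom 2, prior 4.11), and p-values were adjusted by the Benjamini-Hochberg method over all genes kept. Intervals of a change are at 95%. The script was tested on simulated data. The subpopulation is the block, since both libraries of a number come from the same sort, with the contralateral limb as control. Well measured means at least 20 normalized counts in all 6 libraries. The genes and lists were chosen with earlier results of these data known. Full values were given for genes called or with p under 0.05, for the 8 with the highest mean, and for sensors, factors and genes of collagen export named in advance. Other genes were named after their values were seen. The last 1000 bases of 8 of the 46 genes overlap a gene on the opposite strand (Surf4, Sec61a1, Manf, Hsp90b1, Pdia6, Sec23a, Kdelr3 and Dnajb11), and whether counting used strand is not given in the sources used here, so their counts are less certain. Alternatives changed the scale, the filter, the scaling, the variance prior, the block and the pairs used. Those on the order of control levels, on the shares without a pair, on the other pathway genes, on the directions of the roles and without the injured CD140a(+)/Sca1(-) library were chosen after seeing the data.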

Additional observations from a re-analysis of the deposited data

Results flagged for a closer look

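Among the 46 genes, 3 had opposite changes of at least 2-fold after injury in different subpopulations, with 1 library against 1, and the difference was not tested. Spcs3 of the signal peptidase complex was 2.51 times higher in CD140a(+)/Sca1(+) and listed at 0 in injured CD140a(+)/Sca1(-). Ddost of the oligosaccharyltransferase was 2.19 times higher in CD140a(-)/Sca1(+) and 3.82 times lower in CD140a(+)/Sca1(-). Sec23a of the COPII coat was 2.83 times higher in CD140a(-)/Sca1(+) and 7.99 times lower in CD140a(+)/Sca1(-). For all 3, the lower value is in the library with 69.1% of its genes at 0.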

How the results depend on the processing

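Across the alternatives, 504 of 551 values of single genes kept their direction and their side of the threshold, and 34 changed sign, none of them in a gene called under either setting. Of these, 12 came with another scale or scaling. Atf6 turned from 0.01 to -0.014 at a pseudocount of 1, -0.015 at 0.5, -0.20 with quantile normalization and -0.17 with equal medians. With quantile normalization Herpud1 turned to -0.14, Spcs2 to -0.13 and Sec23a to 0.19, and with equal medians Manf turned to -0.0014, Ern1 to -0.13, Herpud1 to -0.15, Spcs2 to -0.17 and Surf4 to -0.0097. The other 22 came when 1 pair was left out, in 18 genes. Over the pairs left out, Hspa5 ranged from -0.53 to 0.26, Dnajc3 from -0.87 to 0.27, Sdf2l1 from -1.23 to 0.57, Manf from -0.35 to 0.62, Pdia3 from -0.73 to 0.18, Pdia4 from -2.06 to 0.23, Atf6 from -0.17 to 0.35, Ern1 from -0.27 to 0.23, Herpud1 from -0.11 to 0.24, Sec61g from -0.32 to 1.32, Ssr3 from -0.20 to 0.80, Spcs1 from -2.02 to 0.58, Spcs2 from -0.81 to 0.43, Spcs3 from -2.25 to 0.47, Ddost from -0.34 to 1.14, Sec23a from -0.87 to 0.97, Sar1a from -0.53 to 0.50 and Mia3 from -0.0058 to 0.71. The 1 call higher among the 46 genes, Creb3l1, became 0 with log2 of the count plus 1 or plus 0.5, without a filter, with the filter set on counts, with equal medians, with a trend, with the unmoderated test and with no replicate block. It ranged from 0 to 2 when 1 pair was left out, where Sec61b joined Creb3l1 without the CD140a(+)/Sca1(-) pair. The 0 calls lower became 1 (Eif2ak3) at a pseudocount of 0.5 and ranged from 0 to 1 without a pair (Creld2 without the CD140a(+)/Sca1(+) pair). The block changed no other count of calls of the 46 genes. The median change of all genes was -0.33, -0.51 with equal medians and -0.14 with quantile normalization. With the filter on counts 15 of all genes had an adjusted p under 0.05, with a trend 95 and without the CD140a(+)/Sca1(-) pair 73, and none of the 46 was among them.

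For the CD140a(+)/Sca1(-) comparison with the other sorts, the 1 lower gene became 0 without a filter, 2 with the filter on counts, 0 with quantile normalization, 0 in the unmoderated test and 0 without the injured library, where 1 was higher. With a trend the count stayed at 1, but the gene was Spcs3, and Creb3l1 was no longer called. For CD140a(+)/Sca1(+), 0 lower became 2 with quantile normalization and 1 without that library. The other pathway genes, 4 higher and 2 lower, gave 2 and 1 without a filter, 1 and 1 in the unmoderated test, 2 higher with a trend, 6 lower with equal medians, and 2 to 9 higher and 0 to 3 lower without a pair. Within CD140a(-)/Sca1(+), 1 gene 3-fold higher became 2 at both pseudocounts and with quantile normalization, and 1 lower became 2 at 0.5 and 0 with quantile normalization. Within CD140a(+)/Sca1(-), 14 lower became 9 with quantile normalization and 1 higher became 0 with equal medians, and within CD140a(+)/Sca1(+) 1 lower became 2 with quantile normalization. In the control order, CD140a(-)/Sca1(+) was lowest in 9 genes, 14 with quantile normalization and 15 with equal medians, CD140a(+)/Sca1(+) highest in 0, 2 and 3, and CD140a(+)/Sca1(-) lowest in 1 with equal medians. The share after injury was 1.14% without Hspa5. The cause was not tested. In the injured CD140a(+)/Sca1(-) library 3 reads equal 2.94 normalized counts. The control CD140a(+)/Sca1(+) library was of similar depth (2341870 against 2095060 reads), with 33.4% of its genes at 0 against 69.1%. Of 1940 genes at 100 or more in every other library, 67 were at 0 in injured CD140a(+)/Sca1(-) cells. Why so many genes were at 0 there was not tested.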
